A study of Mus musculus with 6 samples.

Results

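The 10 genes Krt7, Krt8, Krt18, Krt19, Cdh1, Cdh2, Epcam, Vim, Snai2 and Zeb1 describe where a cell lies between an epithelial and a mesenchymal state. They were chosen by mouse symbol from the 22442 genes of a table of expression values, and all 10 were found there. The table holds 6 poly(A) RNA-seq libraries of mTECs, a line of mouse renal tubular epithelial cells described by the study as immortalised and in the sample labels as magnetically sorted. All 6 cultures received LPS, a bacterial lipopolysaccharide that sets off inflammatory signalling, at 20 μg/ml for 24 h. Before LPS, the 3 cultures labelled LPS were transfected with a negative control and the 3 labelled LPSKD with an siRNA, although the reagent list of the study gives an shRNA for mouse Stat3. The series describes the second group as Stat3-silenced, and Stat3 is a transcription factor activated by inflammatory cytokines. No library without LPS was analysed here, and nothing in the labels says that replicates came from separate cell preparations, so p-values measure the spread between these libraries only.

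Epithelial cells are held in sheets by junctions built on E-cadherin (Cdh1) and on accessory molecules such as Epcam, and their cytoplasm is braced by keratin filaments. Keratin filaments are made of pairs of a type II and a type I chain, and simple epithelia such as tubules use Krt7 or Krt8 with Krt18 or Krt19. In epithelial to mesenchymal transition, cells lower Cdh1, raise N-cadherin (Cdh2) and the filament protein vimentin (Vim), and loosen their contacts. The zinc-finger factors Snai2 and Zeb1 can drive this change by repressing Cdh1. Tubule cells are an unusual epithelium in that proximal tubules carry N-cadherin in the healthy kidney, and injured tubules can express vimentin.

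The values are FPKM, the fragments on a gene scaled by its length and by the size of the library, so that levels of different genes could be set side by side. The library totals worked out from the values lay between 24084827 and 25422170 fragments, and depth hardly differed between libraries. The level of Stat3, the gene said to be silenced, was 34.6, 31.4 and 35.2 FPKM in the LPS-labelled libraries, against 30.8, 35.2 and 34.3 FPKM in the LPSKD-labelled ones. The groups overlapped, and the log2 fold change of Stat3 was −0.01 (95% interval −0.17 to 0.14, adjusted p = 0.944 by limma). The level of the transcript thus did not separate the groups, and the libraries are called LPS-labelled and LPSKD-labelled throughout. The direction of every difference given here therefore rests on the labels alone. The sign of this small difference changed in 3 of the 6 fits that left out 1 library, which gave values between −0.06 and 0.04.

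The keratins were the most abundant of the 10 genes in every library, and Vim, Zeb1 and Snai2 the least abundant. The mean over the 6 libraries was 1227 FPKM for Krt18 (rank 50 of the 22442 genes), 1188 FPKM for Krt8 (rank 57) and 1135 FPKM for Krt7 (rank 66). These 3 keratins had ranges that overlapped with those of their neighbours in the order and so could not be ranked among themselves. Krt19 followed at 598 FPKM, Epcam at 312 FPKM, Cdh2 at 237 FPKM, Cdh1 at 134 FPKM and Vim at 31.7 FPKM. Zeb1 lay at 2.57 FPKM (rank 10131) and Snai2 at 0.0750 FPKM (rank 13764), close to the end of detection. From Krt19 downward, no range met that of the next gene in the order. Cdh2, the mesenchymal cadherin, was thus more abundant than Cdh1 in each of the 6 libraries.

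**Figure D1:**
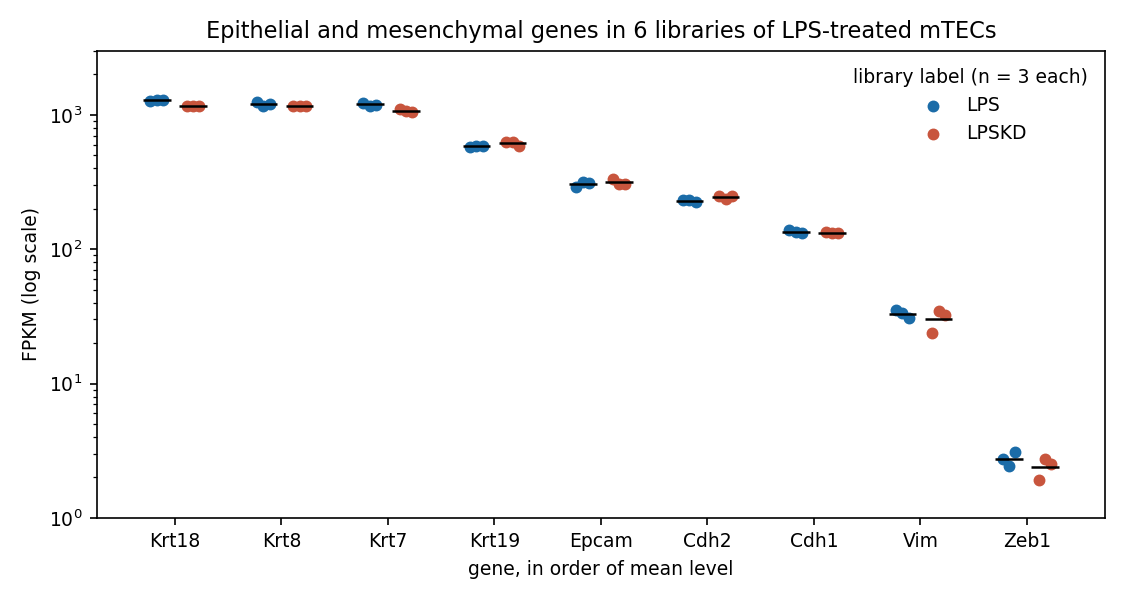
Level in FPKM (vertical axis, log scale) of 9 of the 10 genes in each library labelled LPS (blue) or LPSKD (red), with the group mean as a bar. Snai2 is not drawn because 2 of its libraries were at 0. The keratins lie between 579 and 1300 FPKM, the cadherins and Epcam between 131 and 331 FPKM, and Vim and Zeb1 at the foot, and the distance between genes is much larger than that between groups.

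Between the groups the differences were small. Differences were tested with limma on log2(FPKM + 0.1) over the 11723 genes with a mean of at least 0.5 FPKM, which 9 of the 10 genes reached, and p-values were adjusted over all 11723. Krt18 was lower in the LPSKD-labelled libraries (adjusted p under 0.05, a call that 1.66% of all tested genes received as lower and 3.23% in either direction). None of the 9 genes was called higher, against 1.57% of all tested genes. At an unadjusted p under 0.05, which 17.6% of all tested genes reached, Krt7 and Krt18 were lower and Cdh2 higher, and a second limma fit with voom on the recovered fragments called Krt7 and Krt18 and no member higher. The groups did not overlap for 4 of the 9 genes (Krt7, Krt18, Krt19 and Cdh2), beside 23.8% of all tested genes. The median size of the log2 fold change, sign ignored, was 0.0982 over the 9 genes and 0.0887 over all tested genes. With 3 libraries in each group, 0.1 is the smallest two-sided p that exact permutation allows, so calls on single genes rest on limma.

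**Figure D2:**
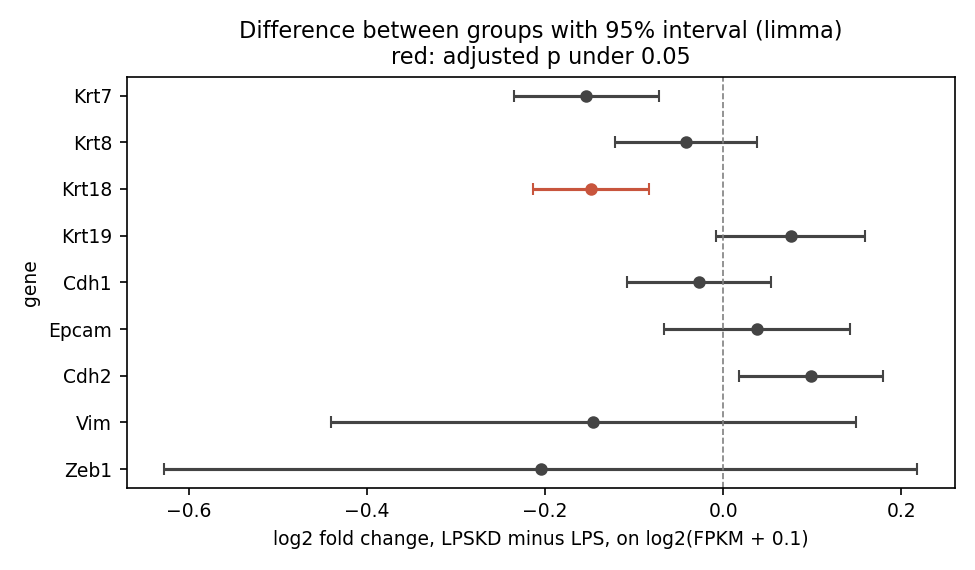
Log2 fold change of LPSKD minus LPS on log2(FPKM + 0.1) (horizontal axis) for the 9 tested genes, with the 95% interval of the limma fit. The interval of Krt18, in red, lies between −0.21 and −0.08 and is the one with an adjusted p under 0.05, and the intervals of Vim and Zeb1 are the widest.

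Krt18 is the type I partner of Krt8 and is encoded on the plus strand of chromosome 15 (GRCm38, 102028180 to 102032027). Its level was 1278, 1292 and 1300 FPKM in the LPS-labelled libraries, against 1158, 1161 and 1173 FPKM in the LPSKD-labelled ones. Every library labelled LPSKD was below every library labelled LPS, and the replicates of a group lay close together. The means were 1290 ± 10.98 FPKM (SD, n = 3) and 1164 ± 8.18 FPKM (SD, n = 3), so that the mean fell by 9.79%, and the log2 fold change was −0.15 (SE, the standard error, 0.029; adjusted p = 0.0319 by limma). Between 35512 and 40856 fragments stood behind each value. The call was lost in 8 of the 16 alternatives. Among these, the adjusted p by limma was 0.112 with no filter on low genes and 0.148 without the variance trend, and in the fits without LPS replicate 2 or 3 or without LPSKD replicate 1, 2 or 3 the adjusted p by limma lay between 0.0588 and 0.158. Its lowest value was 0.00213, with voom. In bulk RNA, fewer cells that express a gene and less of its RNA per cell cannot be told apart, for this gene as for all others.

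Krt7, a type II keratin of simple ducts, lies on chromosome 15 from 101411043 to 101430313 on the plus strand. It was at 1233, 1167 and 1186 FPKM in the LPS-labelled libraries, against 1105, 1067 and 1051 FPKM in the LPSKD-labelled ones. As for Krt18, the groups stood apart. Between means of 1195 ± 33.6 and 1075 ± 27.9 FPKM (SD, n = 3 each) the log2 fold change was −0.15 (SE 0.035, interval −0.23 to −0.07), close to that of Krt18, but the adjusted p was 0.0612 by limma. It passed the threshold after quantile normalization (adjusted p = 0.0408 by limma) and with voom (adjusted p = 0.00661 by limma).

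Krt8, the other type II keratin of simple epithelia, is encoded on the minus strand of chromosome 15 from 101996698 to 102004482, beside Krt18. Its FPKM was 1245, 1158 and 1212 in the LPS-labelled libraries, against 1165, 1172 and 1173 in the LPSKD-labelled ones. The groups overlapped, since LPS replicate 2 was the lowest of all. The log2 fold change was −0.04 (SE 0.035, adjusted p = 0.595 by limma), and its interval ran from −8.08% to 2.68%. The value of Krt8 is uncertain because 43.3% of the stretches of 31 bases in its coding sequence also occur in another annotated transcript, nearly all in the pseudogene Krt8-ps. For Krt18 this share was 12.9%, most of it with Gm5200, and for Krt7 it was 1.42%.

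Krt19, the smallest type I keratin, is encoded on chromosome 11 from 100140810 to 100148665 on the minus strand, away from the other 3. It was at 579, 584 and 584 FPKM in the LPS-labelled libraries, against 631, 625 and 585 FPKM in the LPSKD-labelled ones. All LPSKD libraries were the higher ones, but LPSKD replicate 3 was barely above the highest LPS library. The difference of 0.08 on the log2 scale (interval −0.0077 to 0.16) did not pass the test (adjusted p = 0.330 by limma), and quantile normalization lowered it to 0.02 (adjusted p = 0.846 by limma).

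The promoters of Krt18 and Krt7, the keratins whose LPSKD-labelled libraries all lay below the LPS-labelled ones, are shown beside that of Krt8, and that of Vim is shown as the mesenchymal filament gene. They were taken from RefSeq on GRCm38.p6, as the 250 bases before and 50 from each gene's annotated start, and 5 of the 10 genes had an entry (Krt7, Krt8, Krt18, Epcam and Vim). Krt18 is at chr15:102027966-102028265 and Krt7 at chr15:101412153-101412452, both on the plus strand, Krt8 at chr15:102004293-102004592 on the minus strand, and Vim at chr2:13574061-13574360 on the plus strand. RefSeq starts can differ from the gene coordinates given elsewhere in the text, which are from GENCODE M21. By those coordinates the Krt7 window lies wholly inside its gene, and the Vim window begins after the gene start of 13573927. Capitals mark matches, on either strand, to CACCTG (the E-box letters bound by Snail and Zeb factors), GGGCGG (the GC box) and TATAAA (the TATA box).
Krt18: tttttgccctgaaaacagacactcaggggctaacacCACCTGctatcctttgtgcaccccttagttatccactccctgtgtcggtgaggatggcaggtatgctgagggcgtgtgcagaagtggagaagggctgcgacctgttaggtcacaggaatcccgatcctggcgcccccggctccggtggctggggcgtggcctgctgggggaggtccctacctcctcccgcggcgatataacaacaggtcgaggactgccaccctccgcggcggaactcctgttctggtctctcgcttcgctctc
Krt7: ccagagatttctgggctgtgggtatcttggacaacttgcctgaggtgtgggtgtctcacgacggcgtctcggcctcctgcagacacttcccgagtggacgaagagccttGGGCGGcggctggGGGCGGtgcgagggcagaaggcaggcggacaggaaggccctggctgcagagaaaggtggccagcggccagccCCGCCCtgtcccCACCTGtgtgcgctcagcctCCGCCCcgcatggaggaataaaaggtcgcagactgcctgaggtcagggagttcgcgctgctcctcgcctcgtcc
Krt8: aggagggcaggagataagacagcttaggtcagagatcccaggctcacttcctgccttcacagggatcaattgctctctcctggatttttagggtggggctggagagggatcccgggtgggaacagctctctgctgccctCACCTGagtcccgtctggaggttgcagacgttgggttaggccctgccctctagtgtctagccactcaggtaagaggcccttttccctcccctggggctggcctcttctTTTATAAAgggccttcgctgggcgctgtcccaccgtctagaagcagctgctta
Vim: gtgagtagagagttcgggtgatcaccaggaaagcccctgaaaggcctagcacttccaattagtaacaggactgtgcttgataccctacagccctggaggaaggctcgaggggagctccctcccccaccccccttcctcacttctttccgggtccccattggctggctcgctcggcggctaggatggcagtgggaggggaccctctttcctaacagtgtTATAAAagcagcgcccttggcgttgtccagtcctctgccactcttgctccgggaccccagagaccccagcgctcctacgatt

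With the first base of the transcript as position 0, CACCTG began at −214 in Krt18, at −44 in Krt7 and at −111 in Krt8, and it was found at −187 and, on the minus strand, at −19 in Epcam. Vim held none in this window. Of the 32851 promoters in the RefSeq table, 20.2% held CACCTG. Krt7 had GGGCGG 4 times, and Krt18, Krt8 and Vim did not have it in these windows, beside 35.7% of all promoters. TATAAA stood at −32 in Vim, and Krt8 held a pair of overlapping matches, on opposite strands, that spanned its annotated start, where 13.6% of all promoters hold these letters. TTCNNNGAA, the letters of a Stat site, was in none of the 5 windows and in 8.3% of all promoters. These matches describe letters, not bound sites.

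Within a library, the ratios of Krt19 to Krt18, Krt8 to Krt18 and Krt7 to Krt8 lay apart between the groups. No test of these ratios could reach 0.05, and other keratin pairs, such as Krt7 to Krt18, were not compared. Of all tested genes taken singly, 23.8% had groups apart, and the share over pairs of genes was not computed. A ratio within a library does not depend on how the library was scaled, and 7 pairs of genes were compared by exact two-sided permutation tests, with p adjusted over the 7. Krt19 was 0.453, 0.452 and 0.449 of Krt18 in the LPS-labelled libraries, against 0.545, 0.539 and 0.499 in the LPSKD-labelled ones. No library of one group reached the range of the other, and the log2 ratio differed by 0.22 (exact permutation p = 0.1, adjusted p = 0.175).

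The ratio of Krt8 to Krt18 was 0.974, 0.896 and 0.932 in the LPS-labelled libraries, against 1.01, 1.01 and 1.00 in the LPSKD-labelled ones, a difference in log2 ratio of 0.11. That of Krt7 to Krt8 was 0.990, 1.01 and 0.979 against 0.949, 0.910 and 0.896, a difference of −0.11. For both pairs the groups were apart, with an exact permutation p of 0.1 and an adjusted p of 0.175. Both pairs use Krt8, whose value is uncertain because 43.3% of its coding stretches of 31 bases also occur in another annotated transcript. The type II chains Krt7 and Krt8 summed to 2477, 2326 and 2398 FPKM in the LPS-labelled libraries, against 2270, 2240 and 2224 FPKM in the LPSKD-labelled ones. The type I chains Krt18 and Krt19 summed to 1857, 1876 and 1883 FPKM and to 1788, 1786 and 1758 FPKM. These sums were chosen after the values were seen, and both were lower in all libraries labelled LPSKD, while their ratio lay between 1.24 and 1.33 with LPS and between 1.25 and 1.27 with LPSKD. Together the 4 keratins took between 0.565% and 0.584% of all fragments in the LPS-labelled libraries, against between 0.536% and 0.546% in the others.

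**Figure D3:**
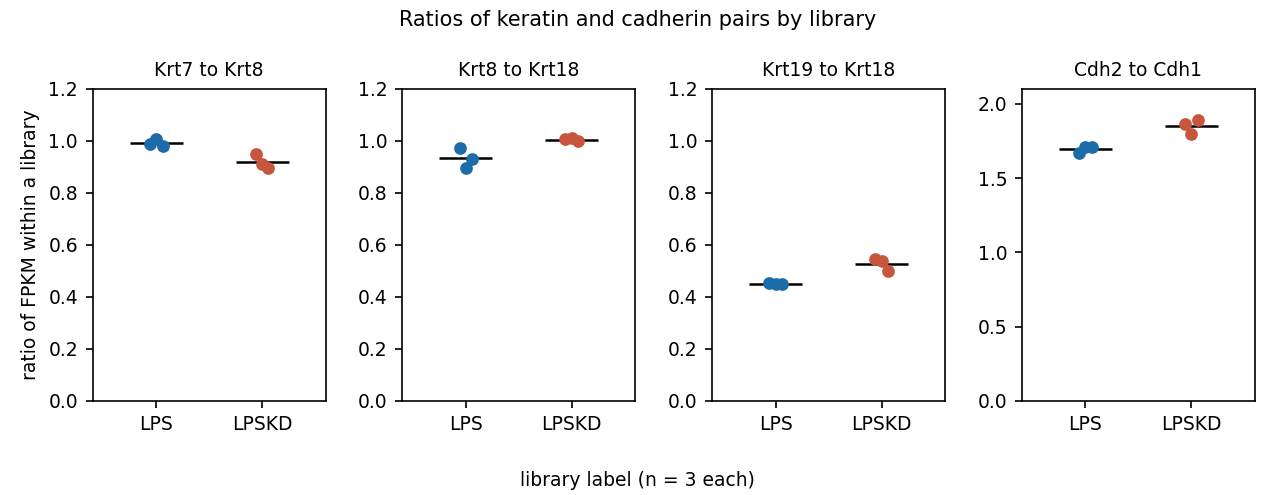
Ratio of FPKM within each library (vertical axis, from 0) for 3 keratin pairs and the cadherin pair, by library label, with the group mean as a bar. In each of the 4 panels the 3 libraries labelled LPSKD lie apart from the 3 labelled LPS, for example with Cdh2 to Cdh1 at 1.80 or more against 1.71 or less. Of the 7 pairs compared, Vim to Krt18, Vim to Krt8 and Zeb1 to Snai2 had groups that overlapped and are not drawn.

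Cdh1, the cadherin of epithelial adherens junctions and the target of Snail and Zeb repressors, did not pass the test. It lies on chromosome 8 from 106603351 to 106670246, on the plus strand. Its FPKM was 138, 135 and 131 in the LPS-labelled libraries, against 134, 132 and 132 in the LPSKD-labelled ones. All 6 values lay within the range of the LPS libraries. The log2 fold change was −0.03 (adjusted p = 0.756 by limma), with an interval from −7.20% to 3.801%.

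Epcam, an adhesion glycoprotein of simple epithelia, lies on chromosome 17 from 87635979 to 87651129 on the plus strand. It was at 291, 317 and 313 FPKM in the LPS-labelled libraries, against 331, 308 and 307 FPKM in the LPSKD-labelled ones. The groups overlapped, with LPS replicate 1 lowest and LPSKD replicate 1 highest. The log2 fold change was 0.04 (SE 0.046, adjusted p = 0.736 by limma). Its sign turned under quantile normalization, to −0.0052, and without LPS replicate 1, to −0.000435.

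Cdh2, the cadherin that takes the place of Cdh1 in mesenchymal cells, is encoded on chromosome 18. It was at 231, 231 and 224 FPKM in the LPS-labelled libraries, against 250, 237 and 249 FPKM in the LPSKD-labelled ones. Each LPSKD library was above each LPS library. The means of 229 ± 3.89 and 245 ± 7.44 FPKM (SD, n = 3 each) differed by 7.07%, or 0.10 on the log2 scale (interval 0.017 to 0.18), but the adjusted p was 0.204 by limma.

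The ratio of Cdh2 to Cdh1, the usual measure of a cadherin switch, was 1.67, 1.71 and 1.71 in the LPS-labelled libraries, against 1.86, 1.80 and 1.89 in the LPSKD-labelled ones. The groups did not overlap, with a difference in log2 ratio of 0.13 (exact permutation p = 0.1, the smallest possible, and adjusted p = 0.175). With 1 library left out at a time the difference stayed between 0.11 and 0.15.

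Vim, the intermediate filament protein of mesenchymal cells, lies on chromosome 2 from 13573927 to 13582826 on the plus strand. It was at 35.1, 33.2 and 30.9 FPKM in the LPS-labelled libraries, against 23.7, 34.6 and 32.4 FPKM in the LPSKD-labelled ones, from 829 to 1223 fragments. LPSKD replicate 1 was the lowest and the other 2 libraries of its group lay within the range of LPS. The log2 fold change was −0.15 (SE 0.13, interval −0.44 to 0.15, adjusted p = 0.619 by limma). Without LPSKD replicate 1 it was 0.02 (adjusted p = 0.940 by limma). The ratio of Vim to Krt18 was between 0.0205 and 0.0298 in all 6 libraries, with a difference in log2 ratio of 0.0027 (exact permutation p = 0.9), and that of Vim to Krt8 differed by −0.10 (exact permutation p = 0.8).

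Zeb1, a repressor of Cdh1 encoded on chromosome 18, had 237, 209 and 261 fragments in the LPS-labelled libraries, against 167, 228 and 220 in the LPSKD-labelled ones. Its FPKM was 2.75, 2.42 and 3.08 against 1.93, 2.73 and 2.50. The groups overlapped, and LPSKD replicate 1 was again the lowest. The log2 fold change of −0.21 (SE 0.18, interval −0.63 to 0.22) did not pass the test (adjusted p = 0.627 by limma). It was −0.07 without LPSKD replicate 1 (adjusted p = 0.916 by limma) and −0.31 without LPSKD replicate 2.

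Snai2, a Snail-family repressor of Cdh1 encoded on chromosome 16 from 14705852 to 14709385 on the plus strand, was close to silent. The LPS-labelled libraries held 1, 0 and 4 fragments and the LPSKD-labelled ones 3, 0 and 1. A count of 0 allows up to 3 fragments, so no difference was detectable at this depth and no fold is given. Among all 16837 genes above 0 its adjusted p was 0.950 by limma. The ratio of Zeb1 to Snai2 could not be read for the same reason (exact permutation p = 0.9).

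The library in which Vim and Zeb1 were lowest also held the least RNA of fibroblast markers. The 8 markers (Pdgfra, Pdgfrb, Col1a1, Col1a2, Col3a1, Dcn, Lum and Thy1) summed to 45.4, 40.9 and 35.8 FPKM in the LPS-labelled libraries, against 23.9, 40.2 and 46.4 FPKM in the LPSKD-labelled ones. All 8 were tested, none was called by limma or by voom, none had an unadjusted p under 0.05, and their median log2 fold change was −0.18 beside −0.0076 over all tested genes. Dcn, the highest of them, was at 15.4, 14.1 and 11.8 FPKM with LPS and at 8.48, 14.0 and 13.6 FPKM with LPSKD (adjusted p = 0.605 by limma). The part of fibroblast RNA in the values of Vim and Zeb1 was not tested. Of the 8 markers, 6 are also in the list of mesenchymal markers given further on. Of 8 leukocyte markers 5 were tested, with sums between 58.3 and 74.8 FPKM, and Csf1r, the receptor of a macrophage growth factor, was higher with LPSKD (27.4, 21.98 and 24.0 against 33.5, 33.8 and 32.7 FPKM, adjusted p = 0.0208 by limma). Its call held in 11 of the 16 alternatives. The call was lost without the variance trend (adjusted p = 0.0867 by limma) and without LPS replicate 3 or any LPSKD replicate, with adjusted p up to 0.0902 by limma. The other 4 tested were not called and had negative log2 fold changes, between −0.39 for Adgre1 and −0.04 for Lyz2. All of these 4 were lowest in LPSKD replicate 1, as Vim and Zeb1 were, while Csf1r and the sum of the list were lowest in LPS replicate 2. Cd68 had groups that did not overlap (14.95, 12.55 and 13.6 against 9.64, 11.5 and 12.25 FPKM, adjusted p = 0.197 by limma), and 2 of the 5 had an unadjusted p under 0.05. The median log2 fold change of the list was −0.18, and Cd3e and Itgam were at or near 0. Of 7 endothelial markers 3 were tested, with sums between 5.61 and 9 FPKM. The lowest sum was again in LPSKD replicate 1, close to 5.75 FPKM in LPS replicate 3. None of the 3 tested was called by limma or voom or had an unadjusted p under 0.05. Their median log2 fold change was 0.14, and Egfl7 was the highest at a mean of 3.26 FPKM.

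**Figure D4:**
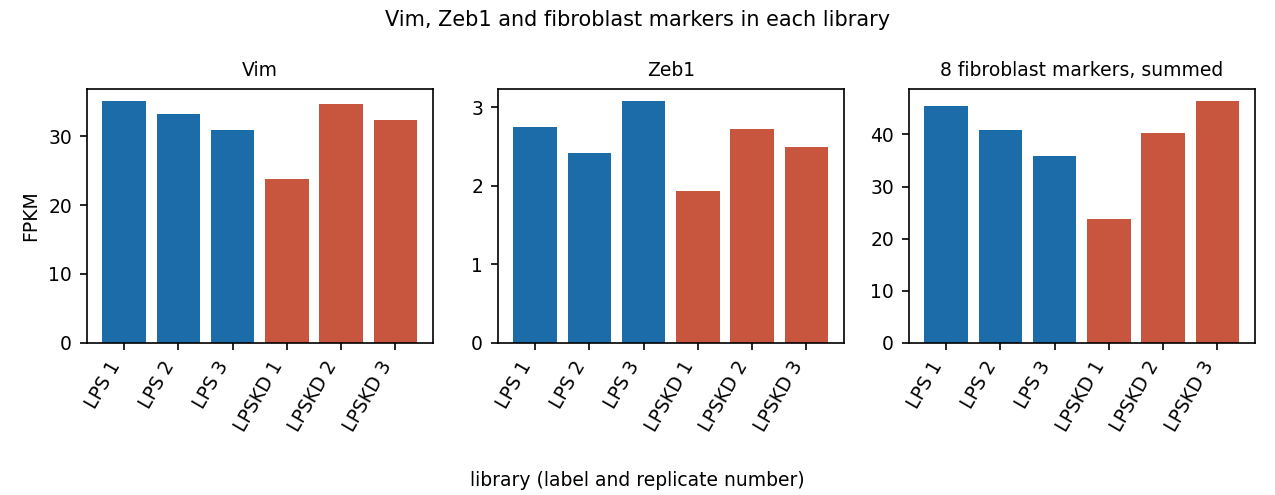
FPKM (vertical axes, from 0) of Vim, of Zeb1 and of 8 fibroblast markers summed, in each of the 6 libraries. LPSKD replicate 1 has the shortest bar in all 3 panels, at 23.7, 1.93 and 23.9 FPKM.

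As a summary of each library, the mean of log2(FPKM + 0.1) over the 6 epithelial genes was 9.22 ± 0.0054 in the LPS-labelled libraries, against 9.18 ± 0.024 in the LPSKD-labelled ones (SD, n = 3 each). Over the 4 mesenchymal genes, Cdh2, Vim, Snai2 and Zeb1, it was 2.95 ± 0.22 and 2.86 ± 0.058. The distance between both means was 6.27 ± 0.22 and 6.31 ± 0.062, a difference of 0.04 that was smaller than the spread of the LPS libraries. These summaries carry no test, and the mesenchymal one follows the few fragments of Snai2.

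The rest of the epithelial machinery was read from 5 lists of 84 genes in all, of which 62 were tested. Of these 3 were called (4.84%, beside 3.23% of all tested genes), 1 higher and 2 lower, and the median log2 fold change of those tested was 0.01. As the lists were chosen with earlier results of these data known, these shares are no test of them.

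Among 13 other keratins 4 were tested and Krt20, a type I keratin of differentiated surface epithelia, fell. It was at 6.53, 6.84 and 6.49 FPKM in the LPS-labelled libraries, against 4.86, 4.27 and 4.20 FPKM in the LPSKD-labelled ones (log2 fold change −0.57, adjusted p = 0.0285 by limma). Krt80, the highest of these keratins at a mean of 66.2 FPKM, had a log2 fold change of −0.03 (adjusted p = 0.853 by limma). Krt16, named here after its values were seen, differed in the other direction by 0.68 on the log2 scale without passing the test (adjusted p = 0.247 by limma). Of the 4, 2 had an unadjusted p under 0.05, and their median log2 fold change was 0.06.

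Of 13 adherens junction genes 10 were tested, with a median log2 fold change of 0.09. An unadjusted p under 0.05 was reached by 5 of the 10, beside 17.6% of all tested genes. The groups did not overlap for 6 of the 10, beside 23.8%. The main limma fit called 1, beside 3.23% of all tested genes, and voom called 2. Cdh16, the kidney-specific cadherin, rose from 192, 177 and 180 FPKM to 220, 219 and 222 FPKM (log2 fold change 0.27, adjusted p = 0.00935 by limma). This is the direction in which Cdh2 differed, for which the test was not passed. Of the listed genes whose groups did not overlap, Ctnnb1 was lower (log2 fold change −0.13, adjusted p = 0.109 by limma). The others, Afdn, Cdh3, Cdh6 and Vcl beside Cdh16, were higher. Apart from Cdh16, these are named after their values were seen, and the main fit called none of them. Ctnna1, the catenin that links cadherins to actin, was the highest at 361 FPKM and had 0.01 as its log2 fold change (adjusted p = 0.906 by limma).

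Of 27 tight junction genes 20 were tested, and their median log2 fold change was 0.0013. Cldn1, a sealing claudin, fell from 208, 206 and 212 FPKM to 178, 179 and 172 FPKM (log2 fold change −0.24, adjusted p = 0.00642 by limma). Cldn4, the highest of the list at 923 FPKM, did not pass the test (log2 fold change −0.03, adjusted p = 0.767 by limma).

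None of the 8 tested desmosome genes of 10 was called by limma, 3 had an unadjusted p under 0.05 and voom called 1, with a median log2 fold change of 0.04 and Perp as the highest (−0.10, adjusted p = 0.146 by limma). Of 21 epithelial regulators, factors and surface proteins of the epithelial programme, 20 were tested. None was called by limma or by voom, 4 had an unadjusted p under 0.05, and the median was −0.02. Cd24a, the highest, had a log2 fold change of 0.12 (adjusted p = 0.128 by limma).

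The mesenchymal side moved in both directions. Of 11 other factors of epithelial to mesenchymal transition 6 were tested, with a median log2 fold change of 0.06. Twist2, a helix-loop-helix factor of mesenchymal cells, rose from 23.5, 27.1 and 26.8 FPKM to 33.2, 35.7 and 34.2 FPKM (log2 fold change 0.42, adjusted p = 0.0149 by limma). Its groups did not overlap, which held for 23.8% of all tested genes. Tcf3, the highest of the list at 70.2 FPKM, had a log2 fold change of 0.08 (adjusted p = 0.449 by limma).

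Of 31 mesenchymal markers 23 were tested, with a median log2 fold change of −0.02. Of the 23, 2 fell and 1 rose, beside 1.66% and 1.57% of all tested genes called lower and higher. Fn1, the matrix protein fibronectin, was at 795, 728 and 746 FPKM in the LPS-labelled libraries, against 548, 543 and 564 FPKM in the LPSKD-labelled ones. The mean fell by 27.1%, with a log2 fold change of −0.45 (SE 0.040, adjusted p = 7.86e-04 by limma), and the call was kept under all 16 alternatives. Cd44, a receptor for hyaluronan, fell from 96.7, 89.8 and 90.5 FPKM to 81.9, 73.3 and 77.5 FPKM (log2 fold change −0.25, adjusted p = 0.0403 by limma).

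Among 19 genes of TGF-beta signalling, the best known inducer of this transition in tubules, 18 were tested, and the median log2 fold change was 0.03. Ccn1, a matricellular protein, rose from 244, 229 and 237 FPKM to 353, 340 and 342 FPKM (log2 fold change 0.54, adjusted p = 1.27e-04 by limma). Its relative Ccn2, also called connective tissue growth factor, fell from 351, 320 and 320 FPKM to 288, 282 and 283 FPKM (log2 fold change −0.21, adjusted p = 0.0359 by limma). Inhba, the activin A subunit, fell from 104, 102 and 108 FPKM to 89.1, 88.2 and 94.2 FPKM (log2 fold change −0.21, adjusted p = 0.0382 by limma).

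Over the 8 lists of epithelial and mesenchymal genes together, 109 of 145 genes were tested and 10 were called (9.17%, beside 3.23% of all tested genes), 4 higher and 6 lower, with a median log2 fold change of 0.02. The lists were chosen with earlier results of these data known, so these shares are no test of the lists. The calls of Fn1 and Ccn1 held in all 16 alternatives. Those of Krt20, Ccn2, Inhba and Cd44 were lost in 7 or more of the 16, with adjusted p up to 0.112, 0.146, 0.154 and 0.138 by limma, and Cd44 and Inhba lost theirs with any of the 6 libraries left out. Those of Cdh16, Cldn1 and Twist2 held in 13, 15 and 13 alternatives. Without the variance trend, Cdh16, Cldn1 and Twist2 lost their calls (adjusted p = 0.0755, 0.0655 and 0.0697 by limma). Without LPS replicate 3 or LPSKD replicate 3, Cdh16 had an adjusted p of 0.0579 or 0.0567 by limma. Without LPSKD replicate 2 or 3, Twist2 had one of 0.0680 or 0.0672.

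**Figure D5:**
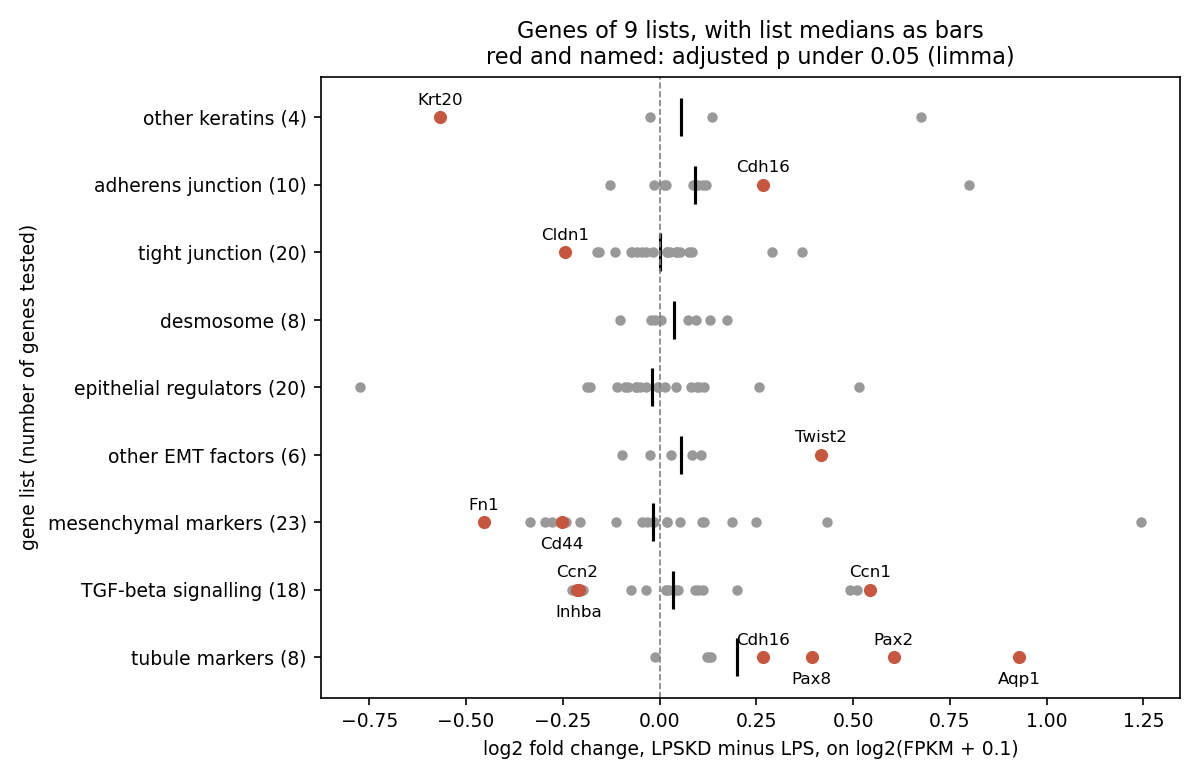
Log2 fold change of LPSKD minus LPS on log2(FPKM + 0.1) (horizontal axis) of the tested genes in 9 lists, 1 mesenchymal marker left out, with the list median as a bar and genes with an adjusted p under 0.05 in red. The medians of the epithelial and mesenchymal lists lie between −0.02 and 0.09, and the called genes of the mesenchymal and TGF-beta lists lie on both sides of 0, from −0.45 for Fn1 to 0.54 for Ccn1.

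The tubule identity of the cells was checked on 18 markers of kidney tubule. Of these, 8 were tested and 10 were under a mean of 0.5 FPKM, of which 6 were at 0 in all 6 libraries. Several defining markers of single segments, such as Lrp2 and Slc34a1 of the proximal tubule, Umod and Slc12a1 of the thick ascending limb and Aqp2 of the collecting duct, were at or near 0. Not all were so low. Cubn, named here after its values were seen, had a mean of 0.944 FPKM from 221 to 300 fragments, and Aqp1 one of 6.34 FPKM. The general tubule factors were present except Lhx1, which was at 0 in all 6 libraries. Of the 8 markers tested 4 rose, beside 1.57% of all tested genes called higher, with a median log2 fold change of 0.20. This list too was chosen with earlier results of these data known, so these shares are no test of it. Pax2 rose from 34.6, 32.3 and 35.0 FPKM to 54.5, 49.1 and 51.5 FPKM (log2 fold change 0.60, adjusted p = 0.00101 by limma) and held its call in all 16 alternatives. Pax8, its partner in kidney development, rose from 77.6, 69.6 and 76.1 FPKM to 103, 92.6 and 97.6 FPKM (log2 fold change 0.39, adjusted p = 0.00844 by limma). Aqp1, a water channel, rose from 3.98, 5.12 and 3.90 FPKM to 6.84, 8.99 and 9.20 FPKM (log2 fold change 0.93, adjusted p = 0.0174 by limma), and Cdh16, given above, is the fourth. The calls of Pax8 and Aqp1 held in 15 and 12 of the 16 alternatives. Both were lost without the variance trend (adjusted p = 0.0691 and 0.0698 by limma). That of Aqp1 was also lost without LPS replicate 3 or LPSKD replicate 2 or 3, with adjusted p between 0.0766 and 0.0867 by limma. The groups did not overlap for 5 of the 8 markers tested, these 4 among them, beside 23.8% of all tested genes.

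The genes whose profile over the 6 libraries lay closest to that of Krt18, the called keratin, were Utp20, Gnl2 and Hook1. Their distances in log2(FPKM + 0.1), each gene centred on its mean, were 0.0195, 0.0357 and 0.0448. Their log2 fold changes were −0.14, −0.16 and −0.13, and none of the 3 passed the test (adjusted p = 0.123, 0.0679 and 0.183 by limma).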

How the data were processed

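Poly(A) RNA of 6 libraries was sequenced by the authors as paired ends. The authors deposited FPKM values per gene and library, with no pooling. The submitters' processing notes name Bowtie 0.12.2, HISAT2 2.0 and StringTie 1.3.0 and the builds mm8 and GRCh38.p13, without their roles. Symbols, coding lengths and GRCm38 coordinates were taken here from GENCODE M21 by gene identifier, for 22399 of 22442 genes. Multiplied by length and library total, the deposited FPKM of all 16837 genes above 0 became whole fragments (tolerance 0.02), 375 of them at a length found by search. With the totals raised by 0.1%, 0.653% of 4746 abundant genes came out whole.

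Groups were taken from the sample titles. limma 3.58.1 in R 4.3.3 (lmFit, eBayes with trend) was run on log2(FPKM + 0.1), keeping genes that averaged 0.5 FPKM or more, without covariates, with Benjamini-Hochberg adjustment over all genes tested. On this scale the fold of a weakly expressed gene comes out too small. For Snai2, below the filter, the fit covered every gene above 0. On simulated data 194 of 199 genes changed 2-fold were recovered in the right direction, with 14 false calls among 11706 tested genes, and 0 of 11703 were called when no gene was changed. Exact permutation tests ran over the 20 assignments of labels. Results were recomputed with voom on recovered fragments, a replicate block, no variance trend, quantile normalization, median centring, pseudocounts of 1 or 0.01, filters at 1 or 0.1 FPKM or none, and each library left out. Intervals on fragments cover counting error only.

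The 10 genes and the 12 gene lists were chosen with earlier results of these data known. The text names the 10 genes, Stat3, the genes of each list with an adjusted p under 0.05 and the highest gene of each list, and for a called gene the 3 genes nearest in profile; absent segment markers and the list of fibroblast markers are named as groups. Some genes covered by this rule are not reported here. Python 3.11.15 with numpy 2.4.6, pandas 2.3.3 and matplotlib 3.10.9 was used for the rest.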

Additional observations from a re-analysis of the deposited data

How the results depend on the processing

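No alternative changed the sign of Krt7, Krt8, Krt18, Krt19, Cdh1, Cdh2 or Zeb1, but sizes moved, from −0.070 to −0.018 for Krt8 and from −0.050 to −0.0088 for Cdh1 (both nearest 0 without LPS replicate 1), from 0.016 to 0.109 for Krt19 and from −0.306 to −0.066 for Zeb1, and 8 of the 16 kept Krt18 past the threshold. The count of 379 genes called became 140 without the variance trend, 213 with the replicate block and 598 with voom, and with 1 library left out it lay between 158 (without LPS replicate 3) and 357. The 1 call among the members became 0 without a filter, 0 without the trend and 0 with the replicate block, 2 with quantile normalization and 2 with voom, and 0 to 1 with a library left out. The 10 calls in the 8 lists became 6 without a filter, 4 without the trend and 4 to 7 with a library left out. Krt18 stayed at −0.15 without a filter, without the trend and with the replicate block (adjusted p = 0.112, 0.148 and 0.0808 by limma), and lay between −0.16 and −0.14 with a library left out. Krt7 passed at −0.17 with quantile normalization and −0.15 with voom. Values near 0 changed sign, namely Epcam at −0.0052 with quantile normalization and between −0.000435 and 0.061 with a library left out, and with a library left out Vim lay between −0.253 and 0.0192 and Stat3 between −0.0641 and 0.0444. The log2 ratio of Vim to Krt18 lay between −0.106 and 0.164, of Vim to Krt8 between −0.210 and 0.0577, and of Zeb1 to Snai2 between −0.523 and 0.375. Fewer libraries enter when 1 is left out, and the cause of the other changes was not tested. No pairing by replicate number was seen, since same-numbered libraries had deviations correlated at −0.016, −0.0039 and −0.043 over 11723 genes. Whether they were paired by design is not given by the labels. The replicate block also ended the calls of Krt20, Ccn2 and Inhba (adjusted p = 0.0826, 0.0510 and 0.0525 by limma). Depth limits Snai2, with 0 to 4 fragments.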

Other observations

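Among the transition factors below the filter, Snai1, chosen after its values were seen, had 12, 13 and 11 fragments in the LPS-labelled libraries, against 5, 4 and 10 in the LPSKD-labelled ones. No library of one group reached the range of the other, though the closest values were 11 and 10 fragments. Groups were apart for 23.8% of the genes above the filter, and the share below it was not computed. The adjusted p of Snai1 was 0.331 by limma over all genes above 0. Ctnnd1, the catenin that binds the cadherin tail close to the membrane, was listed with 1 to 11 fragments per library, and these values, from 0.0143 to 0.155 FPKM, stood beside 361 FPKM for Ctnna1. Ctnnd1 is known to be widely expressed in epithelia, and whether the deposited values count its transcripts in full was not tested, so they are not read as absence of expression. Twist1 had 0 to 7 fragments per library, while its relative Twist2 had 281 to 418.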
